A study of Mus musculus with 6 samples.

Results

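Bone morphogenetic proteins (BMPs) are secreted signals of the transforming growth factor beta superfamily, and 10 genes of their ligand group were described here out of 25899 gene symbols in the deposited table. The members, taken by gene symbol, were Bmp1, Bmp2, Bmp3, Bmp4, Bmp5, Bmp6, Bmp7, Bmp8a, Gdf5 and Gdf6. Bmp1 bears the name but encodes an extracellular metalloprotease of the tolloid kind, which trims procollagens and cuts the BMP antagonist chordin. The others encode growth factors.

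RNA came from the apical portion of first molars of the mouse lower jaw, taken on postnatal day 7.5, during root formation. The mutants were Gli1-CreER;Bmpr1afl/fl (n = 3) and the controls were Bmpr1afl/fl littermates (n = 3), all on a mixed C57Bl6/129S6/SvEvTac background. Both genotypes thus carried the floxed alleles of Bmpr1a, a type I BMP receptor, and only the mutant label names the driver. CreER is a recombinase that works after tamoxifen and is made here where Gli1 is active, so deletion is limited to Gli1-expressing cells and their descendants. The tamoxifen schedule is not given in the sources used here. Both genotypes came from the same 2 litters: libraries 1 and 2 of each genotype belong to litter 1, and library 3 of each to litter 2. Nothing in the labels says how many animals made up a library, so p-values measure only the spread between these libraries, which may in part be technical.

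BMP ligands are made as precursors, are cut by proprotein convertases and are released as dimers. The dimers join type I and type II receptors, which phosphorylate SMAD1, SMAD5 and SMAD9, and extracellular antagonists such as noggin and chordin hold them off the receptors. In teeth BMP4 and BMP2 are known for signalling between epithelium and mesenchyme and for the differentiation of odontoblasts, the cells that lay down dentin.

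Of the 10 genes, 4 (Bmp4, Bmp5, Bmp6 and Bmp8a) matched the RefSeq promoter table of build GRCm38.p6. The bases just before the start site are shown for 3 of them, to set the promoter of a major mesenchymal ligand beside those of the lower ligands Bmp5 and Bmp8a, whose levels varied several-fold among libraries. For Bmp6 the RefSeq start lay 609 bases from the GENCODE start and no window was taken. Capitals mark matches to the GC box (GGGCGG) or the E-box (CACGTG) on either strand, and the sequences run 5′ to 3′ along the gene's strand. The windows are chr14:46390670-46390919, minus strand, for Bmp4; chr9:75775115-75775363, plus strand, for Bmp5; and chr4:123343253-123343502, minus strand, for Bmp8a.
Bmp4: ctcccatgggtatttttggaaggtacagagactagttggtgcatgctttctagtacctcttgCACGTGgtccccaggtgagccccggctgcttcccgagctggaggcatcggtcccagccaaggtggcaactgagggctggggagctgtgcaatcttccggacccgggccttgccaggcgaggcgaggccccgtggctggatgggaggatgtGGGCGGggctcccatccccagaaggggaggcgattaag
Bmp5: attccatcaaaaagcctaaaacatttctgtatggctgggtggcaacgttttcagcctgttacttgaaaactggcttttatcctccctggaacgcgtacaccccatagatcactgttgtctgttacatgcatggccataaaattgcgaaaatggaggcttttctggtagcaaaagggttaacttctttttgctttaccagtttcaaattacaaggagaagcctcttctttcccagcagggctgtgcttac
Bmp8a: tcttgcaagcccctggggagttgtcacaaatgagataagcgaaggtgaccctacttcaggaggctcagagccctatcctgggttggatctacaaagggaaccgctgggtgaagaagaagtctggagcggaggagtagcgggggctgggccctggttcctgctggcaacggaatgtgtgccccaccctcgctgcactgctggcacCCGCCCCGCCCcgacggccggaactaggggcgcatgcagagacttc
The Bmp4 window held 1 GC box and 1 E-box, and the Bmp8a window held 2 GC boxes that overlap each other on the opposite strand. The Bmp5 window held neither. GC content was 63.2% in the Bmp4 window, 62.0% in that of Bmp8a and 43.0% in that of Bmp5, against a median of 52.4% over 32851 promoters. Matches to TATAAA, to the GC-rich Smad element GGCGCC and to the Runx core TGTGGT were not found in these windows. Over all promoters of the same length, 32.7% held the GC box, 6.02% the E-box, 12.4% TATAAA, 9.59% GGCGCC and 14% TGTGGT. A match describes letters in a window and does not show that a factor binds there.

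Levels are given as RPM, reads per 1000000 mapped reads, with 15916045 to 20609420 reads on genes per library. Changes are mutant minus control on log2(RPM + 1), tested with limma across 14444 genes of at least 1 RPM on average, with Benjamini-Hochberg adjusted p-values. Bmpr1a itself was at 121, 139 and 150 RPM in controls 1 to 3 and at 108, 120 and 111 RPM in mutants 1 to 3. The control and mutant ranges lay apart, and the change was -0.27 (SE 0.14, limma unadjusted p = 0.0910). Gli1, the driver locus, stood at 34.9, 30.4 and 63.7 RPM in the controls and at 28.7, 19.8 and 26.6 RPM in mutants, again without overlap (change -0.70, SE 0.29, limma unadjusted p = 0.0460). All 13 listed dental mesenchyme markers were detected. Enamel epithelium markers, 7 of 7 detected, were also present at high and uneven levels, summing to 2143 to 36754 RPM in controls and 4454 to 47440 RPM in mutants. The libraries therefore held epithelial transcripts beside those of the labelled tissue.

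The ligand transcripts formed an abundant and a scarce set. Per kilobase of exon, which allows levels of different genes to be compared, Bmp7 stood at 50.3 ± 4.71 RPM per kb (mean ± SD over 6 libraries), Bmp2 at 46.4 ± 15.6, Bmp1 at 41.7 ± 4.26 and Bmp4 at 35.6 ± 10.6. Bmp6 followed at 6.72 ± 3.58 RPM per kb, Bmp3 at 5.58 ± 2.42, Bmp8a at 4.35 ± 1.67, Bmp5 at 2.64 ± 2.14, Gdf6 at 2.22 ± 3.96 and Gdf5 at 1.80 ± 1.23. In this order only the step from Bmp4 to Bmp6 separated neighbours whose ranges did not overlap. The lowest Bmp4 library, at 20.9 RPM per kb, lay above the highest Bmp6 library, at 12.9. All other neighbours overlapped across libraries, so their order is not fixed by these data.

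Bmp7, Bmp2, Bmp1 and Bmp4 together made up 91.4%, 90.7% and 81.9% of the summed RPM per kb of the 10 genes in controls 1 to 3. In mutants 1 to 3 they made up 85.7%, 91.4% and 86.7%. Control 3 was the lowest of the 6 libraries, and there Gdf6 took 5.80% and Bmp3 5.72% of the sum. Bmp7 kept the narrowest relative range of any share, 23.3% to 30.9%, whereas the Gdf6 share ran from 0.101% to 5.80%. Summed over the 10 genes, the level was 199 ± 34.0 RPM per kb in controls and 195 ± 10.4 in mutants (mean ± SD, n = 3 per group).

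**Figure D1:**
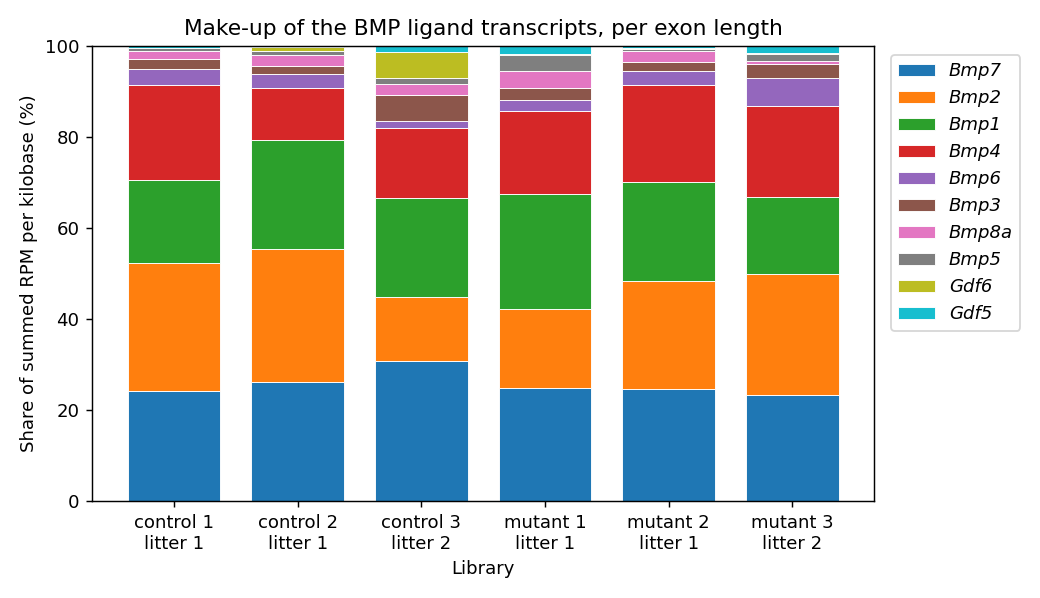
Share of each BMP ligand gene in the summed RPM per kilobase of the 10 genes (y axis, percent), stacked for each of the 6 libraries (x axis). Bmp7, Bmp2, Bmp1 and Bmp4 fill 81.9% to 91.4% of each bar, and the Gdf6 segment is visible mainly in control 3, at 5.80%.

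No ligand differed between genotypes beyond the spread of the libraries. All 10 passed the level filter, 0 of 10 had an adjusted or an unadjusted p under 0.05 by limma, and the control and mutant ranges of all 10 overlapped. Across all tested genes 0.0% passed the adjusted threshold, 1.05% reached an unadjusted p under 0.05 (0.36% with higher and 0.692% with lower levels in mutants) and 2.64% had groups that did not overlap. The point estimates were higher in mutants for 4 genes (Bmp4, Bmp5, Bmp6 and Gdf5) and lower for 6. Their median change was -0.03, beside -0.01 over all tested genes, of which 54.4% were lower in mutants. Every adjusted p among the 10 was 1.00 (limma, Benjamini-Hochberg). In bulk tissue, fewer cells that make a transcript and less of it per cell cannot be told apart.

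**Figure D2:**
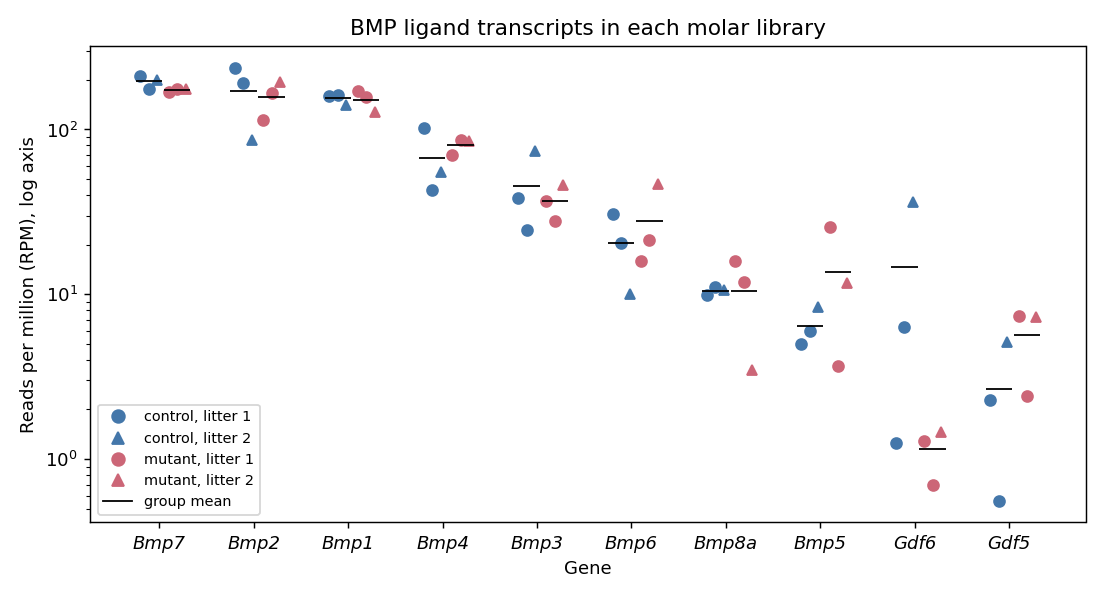
RPM of each BMP ligand gene (log axis) in the 6 libraries, controls in blue and mutants in red, circles for litter 1 and triangles for litter 2, with a bar at each group mean. Control and mutant points overlap for all 10 genes. Bmp1 and Bmp7 are tight, and Gdf6 spans 0.699 to 36.1 RPM.

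The early tooth ligands Bmp2 and Bmp4 were both abundant. Positions of the genes are those of GENCODE on GRCm38. Bmp4 (chr14:46383520-46390669, minus strand), the classical mesenchymal signal of the tooth germ, was at 102, 43.1 and 55.3 RPM in controls 1 to 3 and at 69.9, 86.1 and 84.6 RPM in mutants 1 to 3. Control 1 was the highest library of all and the other controls the lowest, so the mutants lay inside the control range. The change was 0.35 (SE 0.30, 95% interval -0.36 to 1.06, limma unadjusted p = 0.286), with 0.22 inside litter 1 and 0.60 inside litter 2. Without control 1 it was 0.70 (limma unadjusted p = 0.0101), and without control 2 it was 0.08 (limma unadjusted p = 0.765).

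Bmp2 (chr2:133552159-133562885, plus strand), which promotes odontoblast and osteoblast differentiation, stood at 238, 191 and 86.9 RPM in the controls and 114, 167 and 194 RPM in mutants. The litters ran opposite ways: both litter 1 mutants lay below both litter 1 controls, while the litter 2 mutant was 2.23-fold above its control. The pooled change was -0.03 (SE 0.39, 95% interval -0.94 to 0.87), made of -0.62 in litter 1 and 1.15 in litter 2.

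Bmp5, Bmp6, Bmp7 and Bmp8a form the subfamily related to osteogenic protein 1, the older name of BMP7. Bmp7 (chr2:172868012-172940321, minus strand) stood at 213, 176 and 199 RPM in the controls and 168, 177 and 175 RPM in mutants. Controls 1 and 3 lay above all mutants, and control 2 lay among them. Its change was -0.17 (SE 0.14, 95% interval -0.50 to 0.15, limma unadjusted p = 0.250), with -0.17 in litter 1 and -0.19 in litter 2. That interval was the narrowest of the 10 genes.

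Bmp6 (chr13:38345107-38500302, plus strand), which also acts in iron balance through hepcidin, stood at 30.9, 20.4 and 10.1 RPM in the controls and 16.0, 21.3 and 46.4 RPM in mutants. Litter 2 held both extremes, the lowest level in its control and the highest in its mutant, a 4.61-fold difference. The pooled change of 0.42 (SE 0.48) joined -0.42 in litter 1 with 2.10 in litter 2, and without mutant 3 it was -0.01.

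Bmp5 (chr9:75775364-75900310, plus strand), whose loss gives the short-ear skeletal phenotype of mice, stood at 5.0, 5.98 and 8.40 RPM in the controls and 25.7, 3.69 and 11.8 RPM in mutants. Mutants 1 and 3 lay above every control and mutant 2 below every control. The change was 0.67 (SE 0.58, limma unadjusted p = 0.282). It was 0.08 without mutant 1 and 1.33 without mutant 2 (limma unadjusted p = 0.00992 for the latter).

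Bmp8a (chr4:123312645-123343252, minus strand), known mainly for roles in the germ line, stood at 9.84, 11.1 and 10.6 RPM in the controls and 15.9, 11.8 and 3.48 RPM in mutants. Controls were tight, at 10.5 ± 0.630 RPM (mean ± SD, n = 3), while the mutants ran from well above to well below them. The change was -0.22 (SE 0.46), with 0.36 in litter 1 and -1.38 in litter 2, where the mutant was 3.06-fold lower in RPM without the pseudocount. Bmp8a has a related neighbour, Bmp8b, at 3.02 to 4.56 RPM here. Their sequences were not compared, and reads may have been split between them, so both levels are uncertain.

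Bmp3 (chr5:98854415-98884396, plus strand), an atypical member that dampens signalling by other BMPs in bone, stood at 38.1, 24.5 and 74.4 RPM in the controls and 37.0, 27.9 and 45.9 RPM in mutants. Both litter 2 libraries lay above all 4 litter 1 libraries. The genotype change was -0.18 (SE 0.39, limma unadjusted p = 0.650), with 0.07 in litter 1 and -0.69 in litter 2.

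Gdf5 and Gdf6 encode closely related factors known for joint and skeletal patterning, and they had the lowest mean RPM per kb and the largest SD of log2(RPM + 1) of the 10. Gdf6 (chr4:9844372-9862345, plus strand) stood at 1.25, 6.33 and 36.1 RPM in the controls (38, 181 and 1021 reads) and 1.28, 0.699 and 1.47 RPM in mutants (36, 21 and 35 reads). Controls 2 and 3 stood above every mutant, and control 1 lay among the mutants. The change was -2.00 (SE 0.90, 95% interval -4.11 to 0.11, limma unadjusted p = 0.0603), the largest in size of the 10. It was -1.05 inside litter 1 and -3.91 inside litter 2, where the mutant was 24.6-fold lower in RPM without the pseudocount. Without control 3 the change was -0.94, and without control 1 it was -2.96 (limma unadjusted p = 0.00342). With litter as a block the same change of -2.00 had a limma unadjusted p of 0.0238, with an adjusted p of 1.00.

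Gdf5 (chr2:155941023-155945367, minus strand) stood at 2.27, 0.560 and 5.12 RPM in the controls (69, 16 and 145 reads) and 7.35, 2.43 and 7.29 RPM in mutants (207, 73 and 174 reads). Within each litter the mutants lay above the controls, but control 3 was above mutant 2. The change was 0.98 (SE 0.56, 95% interval -0.33 to 2.28, limma unadjusted p = 0.122), with 1.24 in litter 1 and 0.44 in litter 2. It was 1.46 without control 3 and 1.40 without mutant 2 (limma unadjusted p = 0.0248 and 0.0392). Without control 2 it was 0.47 (limma unadjusted p = 0.352), and without mutants 1 or 3 it was 0.76 and 0.77. Antisense gene Gm15557 covers 40.3% of Gdf5's exon bases and ran from 0.315 RPM in control 2 to 4.11 RPM in mutant 3. The strand setting of the counting is not given in the sources used here, so reads of the pair cannot be told apart. A like overlap touches 49.1% of Bmp5 (Gm26903, not analysed here), 6.23% of Bmp6 (Txndc5) and 4.31% of Bmp4 (Gm15217). Txndc5 stood at 257 to 345 RPM, far above Bmp6 in every library, and Gm15217 at 0.282 to 0.790 RPM. The part of Txndc5 reads in the Bmp6 values was not tested.

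Bmp1 (chr14:70474558-70520234, minus strand), the protease, stood at 161, 162 and 142 RPM in the controls and 171, 157 and 128 RPM in mutants. The 2 litter 2 libraries were the lowest, and within litter 1 the genotypes interleaved. Its change was -0.03 (SE 0.16, 95% interval -0.40 to 0.34, limma unadjusted p = 0.835), with 0.02 in litter 1 and -0.14 in litter 2.

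The spread over libraries differed strongly among the 10. The SD of log2(RPM + 1) over 6 libraries had a median of 0.60 for the ligands and of 0.23 for all tested genes. Other lists lay on both sides of the ligands. The median was 0.18 for receptors, 0.24 for Smads, 0.54 for antagonists, 0.90 for odontoblast markers and 1.40 for epithelial markers. Gdf6 varied more than 99.8% of tested genes, Gdf5 more than 97.4%, Bmp5 more than 97.1% and Bmp6 more than 94.5%. At the other end Bmp1 and Bmp7 varied more than only 22.7% and 14.6% of genes. The highest library exceeded the lowest 51.6-fold for Gdf6, 13.1-fold for Gdf5 and 6.97-fold for Bmp5, but 1.33-fold for Bmp1 and 1.27-fold for Bmp7.

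Whether the genotype difference itself differed between litters was tested with an interaction term in limma. With litter 2 represented by 1 library per genotype, the error of this term came from the litter 1 libraries, with 2 residual degrees of freedom before moderation. Bmp2 (1.77, SE 0.41, limma unadjusted p = 0.00477) and Bmp6 (2.52, SE 0.44, limma unadjusted p = 0.00126) had a more positive change in litter 2. Bmp8a (-1.74, SE 0.39, limma unadjusted p = 0.00422) and Gdf6 (-2.86, SE 0.96, limma unadjusted p = 0.0240) had a more negative one. None passed adjustment, with limma adjusted p of 0.649, 0.501, 0.616 and 0.870 in that order. Thus 4 of 10 ligands had an unadjusted p under 0.05 where 5.06% of all genes did, and 0.0% of genes passed adjustment. For 2 of them, Bmp2 and Bmp8a, the litter 1 groups did not overlap and litter 2 lay the opposite way, which held for 18.2% of all genes. The litter 1 groups did not overlap for 3 ligands (Bmp2, Bmp8a and Gdf5), against 26.4% of genes. The ligands share the same 6 libraries and are not independent observations. The median interaction of all genes was 0.19 on the RPM scale and -0.02 with median-of-ratios scaling, under which the 4 values were 1.55, 2.31, -1.95 and -3.05.

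**Figure D3:**
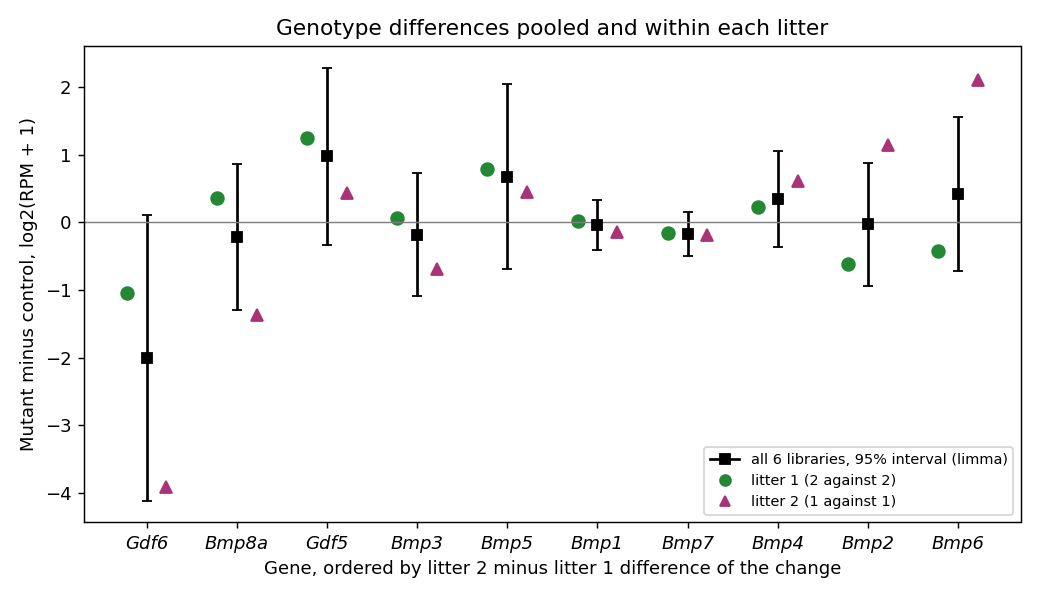
Mutant minus control change in log2(RPM + 1) (y axis) for each BMP ligand gene, ordered by how far the litters differ: black squares with 95% intervals from all 6 libraries, circles for litter 1 (2 against 2) and triangles for litter 2 (1 against 1). Every interval crosses 0. Litters lie far apart for Gdf6, Bmp8a, Bmp2 and Bmp6, and close together for Bmp7 and Bmp1.

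Litter was also compared directly, over both genotypes. Litter 2 was higher for Bmp3 by 0.88 (SE 0.26, limma unadjusted p = 0.0123, adjusted p = 0.149) and for Gdf6 by 1.76 (SE 0.72, limma unadjusted p = 0.0480, adjusted p = 0.235). Mean Bmp3 was 31.9 RPM in litter 1 and 60.2 RPM in litter 2. These were 2 of 10 ligands with an unadjusted p under 0.05, against 20.9% of all genes (7.21% higher and 13.7% lower in litter 2), and 0 of 10 passed adjustment, against 0.872% of all genes. Both values depended on control 3 and on mutant 3, the litter 2 libraries. Without control 3 the Gdf6 difference was 0.33, mutant 3 being at 1.47 RPM, and the Bmp3 difference was 0.50. Without mutant 3 they were 3.19 and 1.26.

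Some marker genes were high or low in the same libraries as the variable ligands. Gdf6 was high in control 3 and control 2, as were the osteoblast matrix genes Ibsp, at 154 and 65.9 RPM there and 23.6 to 35.5 RPM elsewhere, and Spp1, at 159 and 96.1 RPM there and 3.36 to 5.20 RPM elsewhere. Ibsp and Spp1 were also lower in mutants (changes -1.41 and -3.05, limma unadjusted p = 0.0195 and 0.0312), and neither passed adjustment. Of the 7 listed osteoblast markers 4 were highest in control 3, but their summed level did not follow, at 1026, 2064 and 1754 RPM in controls and 1978, 1729 and 524 RPM in mutants. The part of osteoblast transcripts in the Gdf6 values was not tested.

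Bmp8a was lowest in mutant 3 and highest in mutant 1. Of the 7 listed odontoblast markers 5 were lowest in mutant 3 and 3 were highest in mutant 1. Dspp, dentin sialophosphoprotein, at 113 and 6872 RPM in those libraries, Phex, at 18.2 and 725 RPM, and the type I collagen gene Col1a1, at 4871 and 28920 RPM, did both. The other 4 did not, among them Smpd3, lowest in mutant 1 at 64.7 RPM, and Dmp1, lowest in control 1 at 5.33 RPM. The 7 markers summed to 20658, 27646 and 16276 RPM in controls and 37207, 22104 and 5412 RPM in mutants, mostly from Col1a1. Dspp in control 3, at 817 RPM, was well below litter 1, whereas Bmp8a there was not. Bmp2 and Bmp6 were highest in control 1 and mutant 3, but Bmp2 in control 2, at 191 RPM, was close to the 194 RPM of mutant 3. The 5 periodontal and follicle markers summed to 867 and 791 RPM in control 1 and mutant 3, against 306 to 415 RPM in the other 4 libraries (382 RPM in control 2). Postn gave most of these sums, at 791 and 695 RPM, while Tnmd was highest in control 3, at 40.7 RPM, and Scx in mutant 1, at 5.01 RPM.

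Gdf5 was lowest in control 2, where the epithelial keratin Krt5 was at 95.4 RPM against 530 to 2076 RPM elsewhere. All 7 listed epithelial markers were lowest in control 2, and they summed to 1619, 229 and 2860 RPM in controls and 2586, 1049 and 3984 RPM in mutants. Between genotypes 7 of 7 epithelial markers (median change 1.17) and 6 of 7 enamel epithelium markers (median 0.84) had higher point estimates in mutants, as did Gdf5 and Bmp5, and 0 of these markers had a limma unadjusted p under 0.05. Bmp5 was highest in mutant 1, which also had the highest enamel epithelium sum, 47440 RPM, but control 3 had the next highest sum with Bmp5 at 8.40 RPM. The part of these cell mixtures in the Bmp8a, Bmp2, Bmp6, Gdf5 and Bmp5 values was not tested.

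**Figure D4:**
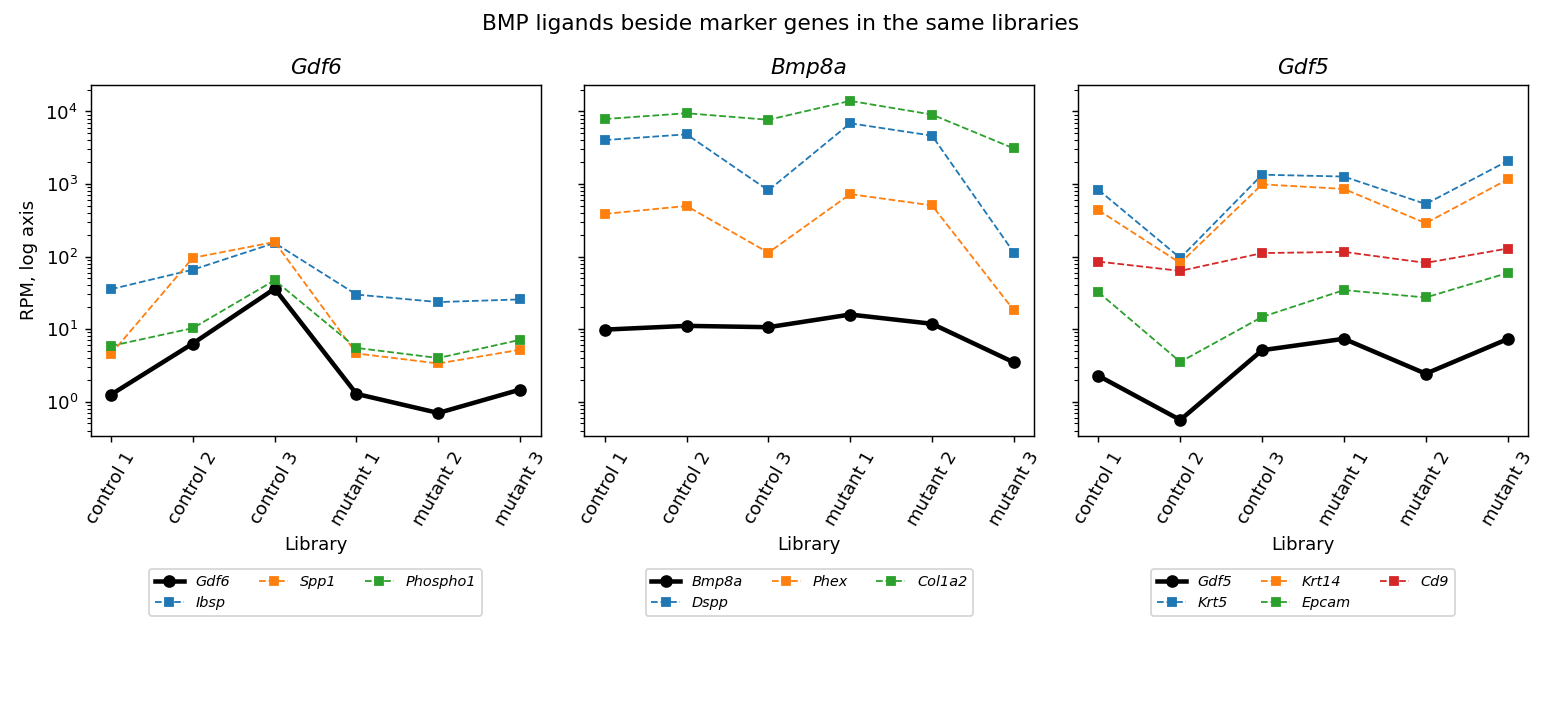
RPM on a log axis for Gdf6, Bmp8a and Gdf5 (black) and for other genes of the same 6 libraries (colours), with dashed lines only guiding the eye between libraries. Gdf6 peaks with Ibsp and Spp1 in control 3, Bmp8a is lowest with Dspp and Phex in mutant 3, and Gdf5 is lowest with Krt5 and Krt14 in control 2.

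The genes most like the 3 most variable ligands were sought among 9978 genes of at least 10 RPM on average, by Pearson's r of log2(RPM + 1) over the 6 libraries. For Gdf6 these were Pgm3, an enzyme of sugar nucleotide synthesis (r = 0.99), Ibsp (r = 0.98) and Phospho1, a phosphatase of mineralizing matrix vesicles (r = 0.98). Without the 2 libraries farthest from the median, controls 3 and 2, r was 0.87, 0.49 and 0.96. For Gdf5 they were Fam83g, Ntn4 (netrin 4, a basement membrane protein) and the tetraspanin gene Cd9, with r of 0.995, 0.99 and 0.99, and of 0.99, 0.98 and 0.99 over the 4 libraries left. For Bmp5 they were Edem3, Vma21 and Matn2, with r of 0.97, 0.97 and 0.96, and of 0.98, 0.96 and 0.90 over the 4 left. The points share litters and libraries, and these are the highest of 9978 coefficients over 6 points. Chosen after its values were seen, Col1a2 of type I collagen followed Bmp8a with r = 0.99, and 0.73 over 4 libraries.

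Among the 45 pairs of the ligands themselves the highest coefficients over the same 6 libraries were those of Bmp1 with Bmp8a (r = 0.88), Bmp2 with Bmp6 (r = 0.85) and Bmp5 with Gdf5 (r = 0.72). The most negative were those of Bmp6 with Bmp8a (r = -0.74), Bmp4 with Gdf6 (r = -0.69) and Bmp6 with Gdf6 (r = -0.68). The most positive pairs do not follow the subfamilies described above.

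The rest of the pathway was read from fixed lists, in which 0 genes passed adjustment between genotypes. Of 6 tested receptors, with Bmpr1a the most abundant per kb, 3 were higher and 3 lower in mutants, and 0 had a limma unadjusted p under 0.05 (median change -0.03). Of 6 co-receptors, led by the pseudoreceptor gene Bambi, 4 were higher and 2 lower (median 0.16, 0 under 0.05). Of 14 tested antagonists, with Fstl1 the highest per kb, 5 were higher and 9 lower (median -0.06), and 1 of the 9 had an unadjusted p under 0.05 and is not reported here, beside 0.692% of all tested genes that were lower with such a p.

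Downstream, 2 of 6 Smad genes, led by the inhibitory Smad6, were higher and 4 lower (median -0.15), and 2 of 12 listed target genes, led by Id3, were higher and 10 lower (median -0.30). Over all tested genes 54.4% were lower, with a median of -0.01, and other lists were as uneven, with 11 of 13 dental mesenchyme markers (median -0.29) and 7 of 7 odontoblast markers lower. The part of the cell mixture in the target counts was not tested. Smad6, Smad7 and Smad9 are on both the Smad and the target lists, so those counts overlap. The targets also share Msx1 and Msx2 with the dental mesenchyme markers and Bambi with the co-receptors. None of the Smad and target genes had a limma unadjusted p under 0.05. Of 7 tested genes that process ligands or their matrix, led by Pcolce, a helper of BMP1-type proteases, 3 were higher and 4 lower (median -0.01, 0 under 0.05). Among dental mesenchyme markers, Lhx6 (-0.54, limma unadjusted p = 0.0431) and Lhx8 (-0.46, limma unadjusted p = 0.0180) were lower in mutants. Of the 4 listed glial markers 2 were higher and 2 lower, among the lower S100b, at 4.94 RPM or less. Both lower ones had a limma unadjusted p under 0.05, beside 0.692% of all tested genes, and 0 passed adjustment.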

How the data were processed

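The labels' protocols describe poly(A) RNA libraries read on an Illumina instrument, and the submitters' processing notes name TopHat2 and mm10. The authors deposited 1 table of log2 values titled as normalized RPKM. All of the values under 1000 reads lay within 0.05 of a whole multiple of 1 step per column, the same for every gene, so length had not been divided out and the values were read as log2 of RPM. The denominator is inferred from that step. Reads on genes were 66.7% to 68.6% of each 1000000, and 3 reads equal 0.0987 to 0.126 RPM, for counting error only. Lengths and positions came from GENCODE on GRCm38.

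Groups and litters came from the labels. Genes averaging 1 RPM or more were fitted on log2(RPM + 1), pseudocount 1, with limma 3.58.1 (trend) in R 4.3.3, two-sided, without covariates, which understates changes of low genes. The script was tested on simulated data. As the deposited unit is a log2 value, the count-based alternative was limma voom on recovered reads. Further alternatives were pseudocounts, filters, scalings, litter and replicate blocks, litter 1 alone and leaving out libraries. The litter interaction's alternatives were added after the data were seen.

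Named were the 10 ligands, Bmpr1a, Gli1, listed genes with an unadjusted p under 0.05, each list's highest gene per kb, and the 3 genes most like each of the 3 most variable ligands. Listed genes with such a p that are not named are not reported here. The members and lists were chosen with earlier results of these data known. Markers set beside a ligand were picked after their values were seen.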

Additional observations from a re-analysis of the deposited data

Results flagged for a closer look

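Bmp2, Bmp6, Bmp8a and Gdf6 had genotype differences that were unlike in the 2 litters, each by an interaction term in limma with an unadjusted p under 0.05. On log2(RPM + 1), the change in litter 2 exceeded that in litter 1 by 1.77 for Bmp2 and by 2.52 for Bmp6. The difference between litters was -1.74 for Bmp8a and -2.86 for Gdf6. None passed adjustment over 14444 genes, and the limma adjusted p-values were 0.649, 0.501, 0.616 and 0.870 in that order. All 4 values rest on a single pair of litter 2 libraries, control 3 and mutant 3.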

How the results depend on the processing

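No ligand reached a limma adjusted p under 0.05 between genotypes in any of the alternatives run. Bmp4, Bmp5, Bmp7, Gdf5 and Gdf6 kept their direction in all of them, although Gdf5 was not tested with a filter of 5 RPM. Litter 1 alone reversed Bmp1 (0.021), Bmp3 (0.0677), Bmp6 (-0.42) and Bmp8a (0.36), and quantile normalization reversed Bmp1 (0.0187) and, between litters, Bmp7 (-0.0441). Leaving out 1 library gave genotype changes of -0.12 to 0.084 for Bmp1, -0.46 to 0.26 for Bmp2, -0.55 to 0.23 for Bmp3, -0.0119 to 0.77 for Bmp6 and -0.60 to 0.36 for Bmp8a. It gave litter differences of -1.29 to 0.49 for Bmp2, -0.30 to 0.22 for Bmp4, -0.15 to 0.93 for Bmp5, -1.24 to 1.29 for Bmp6, -0.0267 to 0.0891 for Bmp7 and -1.72 to 0.0227 for Bmp8a. Interactions then ran from -0.23 to 1.00 for Bmp4, -1.60 to 0.91 for Bmp5 and -0.16 to 0.11 for Bmp7. The cause of these reversals was not tested.

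Ligands with an unadjusted p under 0.05 between genotypes numbered 0, against 1 with the litter block (Gdf6), 1 in litter 1 alone (Bmp2) and 0 to 2 without 1 library. Deviations from the group means of same-numbered libraries had r of -0.03, 0.75 and 0.50. These values cannot settle whether the replicate numbers mark pairs, since library 3 of each genotype also shares litter 2. With the replicate block 2 ligands (Gdf5 and Gdf6) and 524 genes had an unadjusted p under 0.05. Over all genes that number was 152, against 344 without a filter, 292 with the litter block, 319 in litter 1 alone and 68 (without mutant 1) to 325 (without control 1) with 1 library left out, and 240 to 261 without control 3 or mutant 2. The adjusted count was 0, or 1 without control 1.

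Between litters 126 genes passed adjustment, against 2 without a filter, 0 with median-of-ratios, 4 with upper-quartile and 4 with quantile scaling, and 1 with voom. It was 371 without mutant 1, 0 without mutant 2 or mutant 3, and 22, 51 and 82 without controls 3, 2 and 1. The unadjusted number of 3026 was 1393 (without control 3) to 4248 (without mutant 1) with 1 library left out, and its share of higher genes was 34.4%, against 47.2%, 44.8% and 48.7% with those scalings. Ligands under 0.05 numbered 2 (Bmp3 and Gdf6), 1 without a filter, with a filter of 5 RPM, or with median-of-ratios or upper-quartile scaling, and 1 to 4 without 1 library.

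For the interaction, Bmp2, Bmp6 and Bmp8a kept an unadjusted p under 0.05 in 13 of 13 alternatives and Gdf6 in 7. Leaving out 1 litter 1 library gave 3 to 6 such ligands, 616 to 1861 genes (the last without mutant 2) and 0 to 3 ligands past adjustment, in fits with 1 residual degree of freedom. The ligands past adjustment were Bmp6 without control 1 and Bmp2, Bmp6 and Gdf6 without control 2, where 251 (1.74%) and 309 (2.14%) of all genes passed. Of 731 genes 61.3% were higher, against 43.8% with median-of-ratios scaling. None of the interaction's alternatives left out control 3 or mutant 3, so they cannot show how far it depends on that pair. With 3 libraries per group, changes of the variable ligands are bounded only loosely.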

Other observations

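Other ligands of the superfamily were read from a list of 20, of which 12 were tested. In mutants 3 were higher and 9 lower (median change -0.11), and 0 had a limma unadjusted p under 0.05. Tgfb3 was the highest per kb, at 160 to 492 RPM in controls and 143 to 430 RPM in mutants. Bmp10, Gdf2, Gdf3 and Nodal were under 3 reads in all 6 libraries. Gdf7, a relative of Gdf5 and Gdf6 picked here after its values were seen, stood at 30.5, 11.9 and 8.37 RPM in the controls and 6.93, 11.4 and 18.0 RPM in mutants. Its litters ran opposite ways, with changes of -1.02 and 1.02.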
